A study of Homo sapiens with 6 samples.

Results

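The sites described here are stretches of the genome that were called as peaks in all 4 lists of a ChIRP-seq experiment on the RNA DINO: with each of 2 probe sets, and on chromatin both without and with RNase. They were taken from the even list without RNase, on chromosomes 1 to 22 and X. A peak counted when it was under 800 bp wide and overlapped a peak of each of the other 3 lists by at least 1 bp. A stretch of 20 kb on chromosome 6 that holds the gene of the RNA itself, from general knowledge of the build hg19, was left out. This gave 824 sites among 105226 even peaks under 800 bp outside that stretch, and among 105669 even peaks of any width. The sites were chosen by the measured positions and widths of the peaks, so their presence in 4 lists, their overlaps and their widths are descriptions and carry no test. Positions are in hg19.

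DINO is a long noncoding RNA that DNA damage induces through p53 and that takes part in the activation of p53 target genes. In ChIRP, biotinylated DNA oligonucleotides complementary to an RNA are used to pull down crosslinked chromatin, and the DNA that comes with it is sequenced. The oligonucleotides are divided into sets that match different parts of the RNA, because DNA that an RNA holds should come down with each set. Chromatin digested with RNase is the control for DNA that comes down without the RNA, for instance through pairing of an oligonucleotide with genomic DNA. The sites described here were found by both probe sets and also after RNase.

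All 4 libraries came from U2OS, an established line from a human osteosarcoma in which p53 is wild-type. The cells had received doxorubicin, which damages DNA, at 0.2 µg/mL over 24 h. The groups were even probes without RNase, odd probes without RNase, even probes on RNase-treated chromatin and odd probes on RNase-treated chromatin, with 1 library in each. The 2 input samples, without and with RNase, were not analysed here, and no sample without doxorubicin was used. Without replicates no spread between libraries could be measured, and no p-value is given. The lists held 105669 (even), 34695 (odd), 116171 (RNase even) and 57466 (RNase odd) peaks on chromosomes 1 to 22 and X, and the number of reads behind them is unknown. Shares are given with Wilson 95% intervals, which cover counting error only and treat sites as independent, which neighbouring sites are not.

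Presence in all 4 lists was rare in each of them. The sites made up 0.783% of the even peaks under 800 bp (95% interval 0.732 to 0.838). When the same rule was started from another list, it found 834 odd peaks (2.41% of that list), 845 RNase even peaks (0.730%) and 897 RNase odd peaks (1.56%). The sites drew on 822 distinct odd peaks, 822 distinct RNase even peaks and 821 distinct RNase odd peaks, so nearly every site had partner peaks of its own. By far the most frequent pattern was an even peak shared with RNase even alone, with 83325 peaks or 79.2% of the even peaks, and these serve as the comparison group below. A further 19935 even peaks had no partner in any list.

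Sites that missed a single list differed in strength from those that missed another. Fold enrichment is the peak caller's linear ratio over its own background, as the authors deposited it within each list. The 253 even peaks with odd and RNase even partners but no RNase odd partner had a median even fold of 61.5, while their odd partners had a median fold of 6.14 and a median width of 125 bp. The 152 with odd and RNase odd partners but no RNase even partner had a median even fold of 7.50 and a median odd fold of 14.7. The 618 with both RNase partners but no odd partner had a median even fold of 16.7 and a median RNase odd fold of 7.46. In each of these patterns the list without a peak belonged to the probe set with the lower median fold. The sorting favours this order, since a weaker peak more easily misses the threshold of a list.

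At the 824 sites the median fold was 17.4 in the even list (lowest 4.13, highest 131). It was 11.6 in the odd list (3.70 to 171), 22.9 in the RNase even list (3.40 to 240.1) and 18.6 in the RNase odd list (3.37 to 318). Over all peaks of these lists the medians were 10.9, 10.2, 11.8 and 10.96, so the sites stood above the middle of each list. Their median percentile by fold was 71.2 in the even list, 55.0 in the odd list, 74.8 in the RNase even list and 69.3 in the RNase odd list. The comparison group had a median even fold of 12.6 and a median RNase even fold of 16.0. An even fold of at least 100 was reached by 39 sites (4.73%, interval 3.48 to 6.40) and by 63 peaks of the comparison group (0.0756%, 0.0591 to 0.0967).

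High folds in one list went mostly with low folds in the other probe set. The smallest of the 4 folds of a site had a median of 8.18, and it was the odd fold at 394 sites, the even fold at 236, the RNase even fold at 118 and the RNase odd fold at 76. A fold of at least 10 in all 4 lists was reached by 285 sites, of at least 20 by 66 sites and of at least 50 by 4 sites. Without RNase, 182 of the 824 sites (22.1%) had an even fold of at least 50 and 83 (10.1%) had an odd fold of at least 50, but only 4 had both. An odd fold under 50 was thus the rule over all sites too. The other 563 sites had neither.

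The 6 sites with the highest smallest fold had high folds in both sets, although the sets were more than 2-fold apart after RNase at 2 of them. The first lay on chromosome 5 at 168359219 to 168359620, with folds of 55.4 (even), 52.4 (odd), 61.4 (RNase even) and 88.6 (RNase odd). On chromosome 3 at 68836250 to 68836671 the folds were 51.6, 66.5, 69.4 and 128 in the same order. On chromosome 11 at 47650925 to 47651306 they were 50.8, 64.7, 51.9 and 120.4. These 3 sites were stronger in the odd set after RNase, and the last 2 also without it. On chromosome 4 at 42821015 to 42821441 the folds were 50.01, 65.3, 76.9 and 123. On chromosome 3 at 183700364 to 183700775 they were 58.9, 49.9, 68.5 and 93.6. On chromosome 2 at 113559302 to 113559776 they were 48.5, 44.1, 142 and 68.6, and it was the only site of the 6 with the even set stronger after RNase. The site at the median smallest fold, on chromosome 2 at 128992407 to 128992545, had folds of 8.18, 22.5, 17.7 and 45.3 and is thus an odd-dominated site. Genes and sequence at the sites were not analysed here.

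The share of peaks that were in all 4 lists rose steeply at the top of the even list. It was 0.468% of even peaks with a fold under 10 (interval 0.411 to 0.533), 0.663% between 10 and 20 and 0.989% between 20 and 50. It then reached 2.13% between 50 and 75 (1.68 to 2.70), 9.78% between 75 and 100 (76 of 777 peaks, 7.89 to 12.1) and 29.5% at 100 or more (39 of 132 peaks, 22.4 to 37.8). In the odd list the share stayed between 2.15% and 2.96% in all bands under 100 and was 6.80% at 100 or more (21 of 309 peaks, 4.49 to 10.2). The share with a partner in the odd list, whether or not RNase odd had a peak, reached 43.2% of the even peaks at 100 or more (57 of 132). Width moved with fold: the sites at an even fold under 10 had a median even width of 143.5 bp, and those at 100 or more had 519 bp. Among even peaks of at least 400 and under 600 bp alone, the share was 1.49% under a fold of 50 (58 of 3891 peaks, 1.15 to 1.92), 10.6% between 75 and 100 (73 of 688) and 32.0% at 100 or more (39 of 122, 24.4 to 40.7). The rise was thus also seen within a narrower range of widths, which was chosen after the values were seen. Width was not held fixed there, since its median was 433 bp under a fold of 50 and 511 bp at 100 or more.

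**Figure D1:**
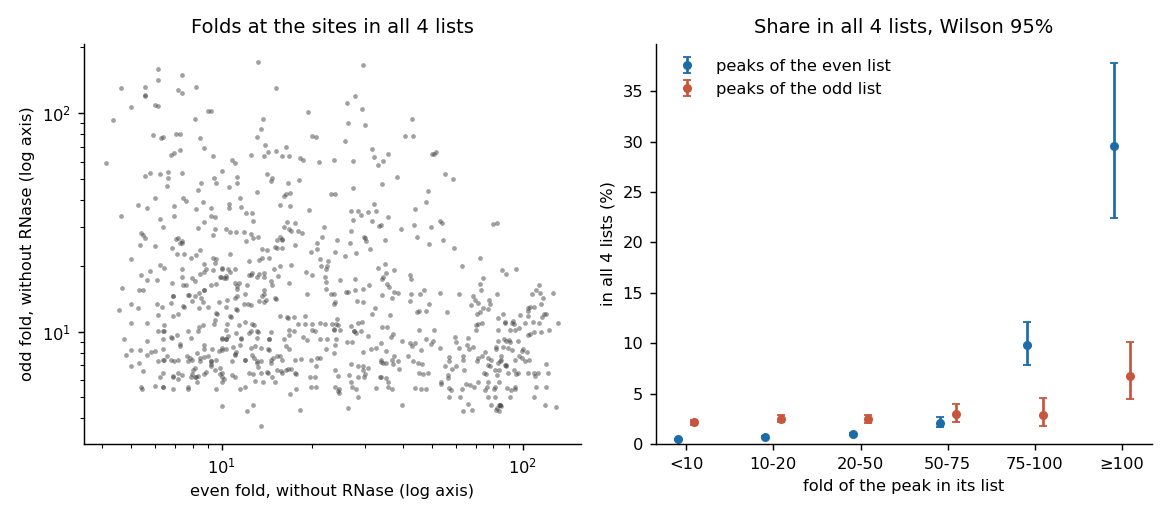
Left, the even fold (x axis) and odd fold (y axis) of each of the 824 sites without RNase, both on log axes, in which only 4 sites have a fold of at least 50 on both axes. Right, the percentage of even and of odd peaks under 800 bp that are in all 4 lists, by the fold of the peak in its own list, with Wilson 95% intervals, rising to 29.5% of even and 6.80% of odd peaks at a fold of 100 or more.

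The partners of the strongest even peaks were weak odd peaks, narrower than the even peaks and often near the same summit. At the 182 sites with an even fold of at least 50, the median fold was 82.5 in the even list and 136 in the RNase even list. In the odd list it was 8.35 (quartiles 6.39 and 12.0), and in the RNase odd list 11.5. The median widths were 500 bp and 522 bp in the even lists, and 204 bp and 257 bp in the odd lists. Their even and odd summits, the positions of highest enrichment, lay a median of 45.5 bp apart, and 54.4% lay within 50 bp (47.1 to 61.5). At the 563 sites with neither fold at 50 or more the distance was 87 bp, and 31.1% lay within 50 bp (27.4 to 35.0). At the 39 sites with an even fold of at least 100 the distance was 37 bp without RNase and 30 bp with RNase. Across the 182 sites the log2 even and odd folds had a Pearson r of -0.17, so among them a stronger even peak did not go with a stronger odd partner. Points of this correlation share the same pair of libraries.

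The 83 sites with an odd fold of at least 50 were less uniform. Their median fold was 71.6 in the odd list and 128 in the RNase odd list, and 13.1 and 13.3 in the even and RNase even lists. The even and odd summits lay a median of 167 bp apart, and 26.5% lay within 50 bp (18.2 to 36.9). The sites counted from the odd list with an odd fold of at least 100 were different, with a median distance of 29 bp and a median even fold of 7.36 over 21 sites. Close summits were thus seen at the strongest peaks of each set, but in the odd set only in this small group.

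Summits agreed more closely within a probe set than between the sets. The median distance was 19 bp between even and RNase even summits (quartiles 9 and 35) and 21 bp between odd and RNase odd summits (10 and 41). Between the sets it was 78.5 bp without RNase (31 and 159) and 83.5 bp with RNase (33 and 170). The distance between the sets depends on the overlap rule: at the 204 sites with reciprocal 50% overlap in every list the even to odd median was 41.5 bp (95% interval 31 to 50), still above the 19 bp between even and RNase even summits there. Crossing both the probe set and the RNase state gave 81 bp (even to RNase odd) and 82.5 bp (odd to RNase even), so the distance followed the probe set and not the RNase state. Within 50 bp lay 86.8% of the even and RNase even summits (84.3 to 88.9), 80.6% of the odd and RNase odd summits (77.7 to 83.1) and 35.9% of the even and odd summits (32.7 to 39.3). Within 200 bp these shares were 99.2%, 99.0% and 84.2%. Even and odd summits lay closer at the 424 even peaks with an odd partner that were not in all 4 lists. Their median distance was 50.5 bp, against 78.5 bp at the sites. Within 50 bp lay 212 of the 424 (interval of the percentage 45.3 to 54.7), against 35.9% of the sites. Strength was not matched, since 253 of the 424 had a median even fold of 61.5.

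**Figure D2:**
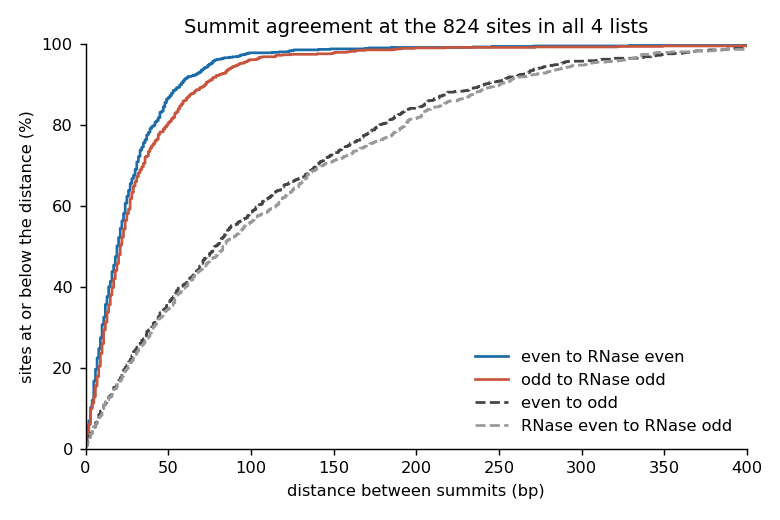
The percentage of the 824 sites (y axis) whose summits lie at or below a distance in bp (x axis), for 4 pairs of lists. The lines within a probe set (solid) have medians of 19 and 21 bp, and those between probe sets (dashed) have medians of 78.5 and 83.5 bp.

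Within the even set the sites did not stand apart from peaks shared with RNase even alone. The comparison group had a median even to RNase even distance of 20 bp, with 86.0% within 50 bp (85.7 to 86.2), against 19 bp and 86.8% at the sites. In bands of even fold, the medians were 24 bp in both groups under a fold of 10, 19 bp in both between 10 and 20, and 17 bp at the sites against 16 bp between 20 and 50. At 50 or more they were 19 bp at the sites and 16 bp in the comparison group. For the odd set, the 30452 odd peaks shared with RNase odd alone had a median distance of 18 bp, with 87.4% within 50 bp (87.0 to 87.8), against 80.6% at the sites. At the sites the odd and RNase odd partners were each chosen by overlap with the even peak and need not overlap each other. They did at 820 sites, of which 81.0% had odd summits within 50 bp (78.1 to 83.5). The groups were thus not built alike, and the lower share at the sites was not tested.

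The offset between the sets was itself found again after RNase. Of the 528 sites whose even and odd summits lay over 50 bp apart without RNase, 484 (91.7%, 89.0 to 93.7) had the odd summit on the same side after RNase. The offset with RNase was within 50 bp of that without RNase at 569 of the 824 sites (69.1%, 65.8 to 72.1), and its median change was 31 bp. Across the sites, which share libraries, the offsets had a Pearson r of 0.85. Neither side was preferred, since the odd summit had the higher coordinate at 426 sites (51.7%, 48.3 to 55.1) without RNase and at 415 (50.4%) with RNase.

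**Figure D3:**
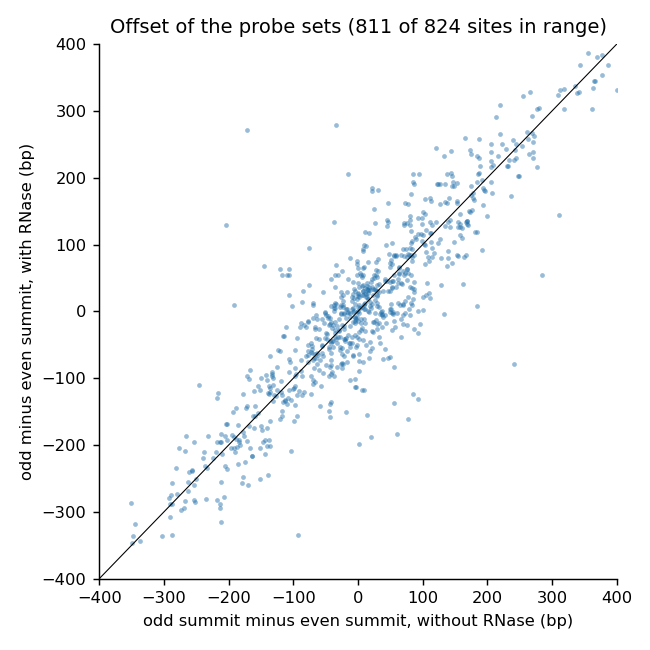
The odd summit position minus the even summit position in bp at each site without RNase (x axis) and with RNase (y axis), with the line of equal values. The plot holds the 811 of 824 sites that lie within 400 bp on both axes, and the points lie along the line.

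The distance between the outermost of the 4 summits had a median of 110 bp (quartiles 63.75 and 194) and ran from 7 to 1479 bp. It was at most 50 bp at 144 sites (17.5%, 15.0 to 20.2), over 50 and up to 100 bp at 239, over 100 and up to 200 bp at 246 and over 200 bp at 195 (23.7%). A base shared by all 4 intervals existed at 787 sites, where this common stretch had a median length of 120 bp. All 4 summits lay in it at 344 sites (41.7%, 38.4 to 45.1), and none did at 202 (24.5%, 21.7 to 27.6). The sites thus range from 4 peaks on a single point to peaks of the probe sets that merely touch.

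The closest summits were on chromosome 13 at 113765547 to 113765741, within 7 bp, with folds of 23.6 (even), 14.8 (odd), 43.6 (RNase even) and 24.6 (RNase odd). A site on chromosome 22 at 23389225 to 23389557 had its summits within 9 bp and folds of 15.3, 7.74, 26.9 and 8.37. The third lay beside the first, on chromosome 13 at 113766121 to 113766477, with summits within 10 bp and folds of 31.1, 24.0, 34.0 and 34.0. At these 3 sites no fold of either set was more than 3.22 times that of the other in the same RNase state. The farthest summits were 1479 bp apart, on chromosome 5 at 57777625 to 57778119, where the even peak of 495 bp (fold 9.998) met a RNase even peak of 1450 bp (fold 64.6). On chromosome 22 at 27857118 to 27857560 they were 754 bp apart, and the odd peak was 1008 bp wide against 443 bp for the even peak. On chromosome 5 at 1043613 to 1044093 they were 661 bp apart, with a RNase even peak of 3135 bp. At all 3 farthest sites a partner was over 800 bp wide, a limit that the rule set for the even peak alone.

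The even peaks of the sites were wider than those of the comparison group, which the overlap rule favours. The median even width was 295.5 bp (quartiles 178.75 and 415) against 208 bp (148 and 311). The median widths in the odd, RNase even and RNase odd lists were 209, 303.5 and 265 bp. In bands of even fold under 50 the difference was small. The medians were 143.5 against 140 bp under a fold of 10 and 226 against 213 bp between 10 and 20. Between 20 and 50 they were 349 against 339 bp. At 50 or more the gap was wider, with 500 against 436 bp. Folds are not matched in that open band, where 39 of 182 sites and 63 of 3608 comparison peaks reached 100 or more. The union of the 4 intervals had a median of 465.5 bp. Partners of 800 bp or more were found at 3 sites in the odd list, 3 in the RNase even list and 5 in the RNase odd list.

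The 3 widest sites under the limit measured 776 bp (chromosome 1 at 208236758 to 208237533), 772 bp (chromosome 6 at 163660493 to 163661264) and 767 bp (chromosome 6 at 166207464 to 166208230). Their even folds were 71.0, 28.4 and 77.7, and their odd folds 7.58, 6.20 and 13.4. The 3 narrowest peaks just over it measured 814 bp (chromosome 8), 815 bp (chromosome 17) and 826 bp (chromosome 11), with even folds of 29.8, 31.2 and 29.4 and odd folds of 21.0, 13.1 and 12.3. Of the 439 even peaks of 800 bp or more, 29 were in all 4 lists (6.61%, 4.64 to 9.33).

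The stronger probe set differed from site to site. Folds are made within each list, so the order of the sets was also taken from percentile ranks of fold. Without RNase the even fold was higher at 493 of 824 sites (59.8%, 56.4 to 63.1). Over all 1248 even peaks under 800 bp with an odd partner, which include the sites, this share was 61.1%. With RNase the even fold was higher at 428 sites (51.9%, 48.5 to 55.3), against 56.2% of 1844 RNase even peaks with a RNase odd partner. By percentile rank the shares were 59.0% and 51.5%. The even majority without RNase was less firm under stricter rules. It was 55.4% with reciprocal 50% overlap (48.5 to 62.1) and 54.2% at a −log10 q-value of at least 10 (49.7 to 58.7). Both intervals hold 50%. Without RNase the 59.8% was near the 61.1% of its background, but the 824 sites are part of those 1248 peaks, which favours nearness. With RNase the 56.2% of the background lay above the interval of the sites. Those 1844 peaks also include RNase even peaks in all 4 lists, of which there were 845. The difference was not tested.

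Many sites were strongly one-sided. Without RNase the even fold was at least 2 times the odd fold at 324 sites (39.3%, background 43.3%), and the odd fold was at least 2 times the even fold at 172 (20.9%, background 20.4%). With RNase the numbers were 300 (36.4%, background 38.3%) and 255 (30.9%, background 27.5%). The 1248 peaks behind the backgrounds without RNase include the 824 sites, which narrows any difference from them. The median ratio of the stronger over the weaker set was 2.59 without RNase and 2.97 with RNase. In 207 sites the sets were less than 2-fold apart in both RNase states.

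The order of the probe sets was mostly the same with and without RNase. The even fold was higher in both states at 405 sites and the odd fold in both at 308, so the order was kept at 713 sites (86.5%, 84.0 to 88.7). Of the 111 others, 88 turned from even to odd with RNase and 23 from odd to even. The order was kept at all 302 sites with folds at least 4-fold apart without RNase and at 482 of 496 sites at least 2-fold apart (97.2%, 95.3 to 98.3). At the 328 sites less than 2-fold apart it was kept at 231 (70.4%, 65.3 to 75.1). Across the sites, the log2 ratios of the even over the odd fold had a Pearson r of 0.94 and a Spearman rho of 0.93 between the RNase states. The folds of 1 site within a probe set also went together (r = 0.91 for even and RNase even, 0.90 for odd and RNase odd), while those of different sets had an r of -0.28 without RNase and -0.31 with RNase. These correlations describe 824 sites in 4 libraries, which all had to pass the threshold of every list.

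**Figure D4:**
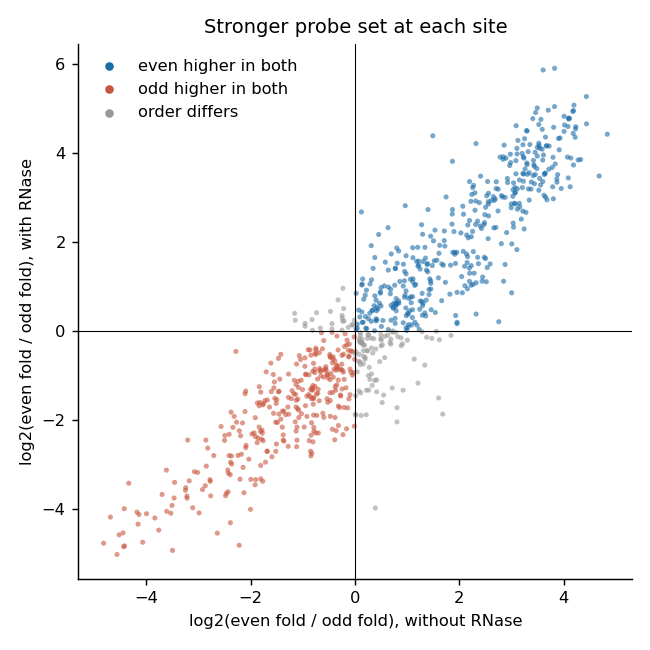
The log2 ratio of the even fold over the odd fold at each of the 824 sites, without RNase (x axis) and with RNase (y axis). Blue points are the 405 sites with the even fold higher in both states, red points the 308 with the odd fold higher in both, and grey points the 111 whose order differs.

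The stronger set also had the wider peak. Where the even fold was higher in both states, the even peak was the wider at 387 of 405 sites (95.6%, 93.1 to 97.2), with median widths of 400 bp (even) and 163 bp (odd). Their median folds were 42.5 (even), 8.08 (odd), 62.9 (RNase even) and 11.8 (RNase odd). Where the odd fold was higher in both, the odd peak was the wider at 252 of 308 sites (81.8%, 77.1 to 85.7), with medians of 322.5 bp (odd) and 184 bp (even). Their median folds were 9.62 (even), 26.8 (odd), 12.1 (RNase even) and 49.8 (RNase odd). Without RNase, the median of the weaker set lay below that of its whole list in both groups, and the median of the stronger set lay above it. With RNase, the medians of both sets lay above those of their lists. For the weaker set they were 11.8 against 10.96 (RNase odd) and 12.1 against 11.8 (RNase even). The 2 groups were formed by the order of these same folds, which favours a low weaker set.

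The most even-sided site lay on chromosome 9 at 27900024 to 27900579, with folds of 129 (even), 4.53 (odd), 151 (RNase even) and 7.08 (RNase odd). The odd peak there was 120 bp wide, the narrowest width in the odd list, beside an even peak of 556 bp. On chromosome 1 at 159076185 to 159076706 the folds were 118, 4.62, 134 and 12.0. On chromosome 12 at 47787813 to 47788315 they were 109, 5.02, 160 and 6.38. On chromosome 21 at 16366989 to 16367542 they were 119.9, 5.55, 226 and 5.90, and the even and odd summits were 6 bp apart. These 4 sites kept a ratio of the even over the odd fold between 11.1 and 38.3 after RNase.

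The odd-sided sites mirrored them. On chromosome 6 at 164264708 to 164264934 the folds were 4.61 (even), 130.3 (odd), 9.74 (RNase even) and 266 (RNase odd). On chromosome 15 at 57256686 to 57256810, an even peak of 125 bp with a fold of 6.15 lay under an odd peak of 619 bp with a fold of 159, and the RNase folds were 17.5 (even) and 318 (odd). On chromosome 4 at 153406948 to 153407070 the folds were 5.56, 131, 7.65 and 249. On chromosome 15 at 87371711 to 87371836 they were 6.15, 141, 11.1 and 267, and all 4 summits lay within 11 bp. The odd folds of these 4 sites were between 18.2 and 32.5 times the even folds after RNase.

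Folds were higher after RNase at most sites, as in the lists as a whole. The RNase even fold was above the even fold at 637 sites (77.3%, 74.3 to 80.0), against 72.4% of the 85020 even peaks under 800 bp with a RNase even partner. The RNase odd fold was above the odd fold at 728 sites (88.3%, 86.0 to 90.4), against 91.7% of the 31761 odd peaks with a RNase odd partner. The median ratio with over without RNase was 1.41 in the even set and 1.64 in the odd set. In peaks shared within 1 set alone these ratios were 1.32 and 1.78. Both sets were higher with RNase at 557 sites and both were higher without RNase at 16 (1.94%, 1.20 to 3.13). By percentile rank within each list, the share higher with RNase fell to 60.3% in the even set and 82.6% in the odd set. Depth and the control of the peak calls are unknown, so these ratios do not measure recovered DNA.

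Most sites stood alone. Another site lay within 100 kb of 84 sites (10.2%, 8.31 to 12.4), within 10 kb of 22 (2.67%, 1.77 to 4.01) and within 1 kb of 11 (1.33%, 0.747 to 2.37). Peaks shared with RNase even alone had a site within 100 kb at 7.16% (6.99 to 7.34), within 10 kb at 0.767% and within 1 kb at 0.0552%. At each of these distances a site was thus found beside a larger share of the sites than of the comparison group. The intervals do not overlap, but being a neighbour is mutual. The 84 sites form 39 clusters, so their interval is too narrow. With sites within 1 kb counted as 1, the 100 kb share was 9.17% (7.38 to 11.3). Some even peaks within 1 kb of each other also met the same peak in each of the other 3 lists. Whether the intervals stayed apart depended on the overlap rule and the threshold. With reciprocal 50% overlap, 3.43% of 204 sites (1.67 to 6.91) and 1.90% of the comparison group had a site within 100 kb. The direction was kept, but the intervals overlap. At 10 kb they did not, with 1.47% (0.501 to 4.23) and 0.182% (0.155 to 0.214). When only peaks at a −log10 q-value of 10 or more were kept, the 100 kb shares were 4.99% of 461 sites (3.35 to 7.38) and 4.38% (4.23 to 4.55). The 10 kb shares were then 0.651% (0.222 to 1.90) and 0.462% (0.412 to 0.518), and the intervals overlap at both distances. Under each of these rules the 10 kb share of the sites rests on 3 sites. Any other even peak within 10 kb was found beside 61.5% of the sites (58.2 to 64.8) and 58.0% of the comparison group (57.6 to 58.3). Within 1 kb the shares were 8.98% (7.21 to 11.1) and 8.33% (8.14 to 8.52), whose intervals overlap. An even peak of 800 bp or more lay within 10 kb of 12 sites (1.46%, 0.835 to 2.53) and of 0.619% of the comparison group (0.568 to 0.675).

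At gaps of at most 100 kb the sites formed 39 clusters: 34 of 2 sites, 4 of 3 and 1 of 4. The cluster of 4 spanned 109805 bp on chromosome 1, from 41275904 to 41385708. Its sites were not alike, since the even fold was higher at 2 of them and the site at 41352514 to 41352729 had folds of 6.01 (even), 108.8 (odd), 6.80 (RNase even) and 114 (RNase odd). The shortest cluster of 3 spanned 1083 bp on chromosome 5, from 57777625 to 57778707. There the 3 even peaks met the same RNase odd peak (fold 57.6), and the last 2 also met the same odd peak (fold 53.4) and the same RNase even peak (fold 10.5). This pair, and a pair on chromosome 8, were thus separate even peaks beside a single peak in each of the other 3 lists. The other neighbours within 1 kb, on chromosomes 2 and 13, had partners of their own in each list. The pair on chromosome 13 at 113765547 and 113766121 holds 2 of the 3 sites with the closest summits. With a site at 113767259 it forms a cluster of 3, which was named after its values were seen.

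The sites are a subset of the even peaks, so their spread over the chromosomes is partly set by the rule. Every one of the 23 chromosomes had sites, from 9 on chromosome 21 to 82 on chromosome 2. Per 1000 even peaks under 800 bp there were 7.83 sites over all chromosomes, from 5.53 on chromosome 19 (interval 3.36 to 9.11) to 10.4 on chromosome 14 (7.56 to 14.4). The interval of each of the 23 chromosomes held the overall value, but the intervals are wide and cannot show that the shares were equal. Chromosome X had the lowest density per Mb for both groups, with 0.0969 sites and 13.5 comparison peaks per Mb, and chromosome 20 the highest density of sites, with 0.397 per Mb. U2OS is aneuploid, and its copy number was not used here.

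**Figure D5:**
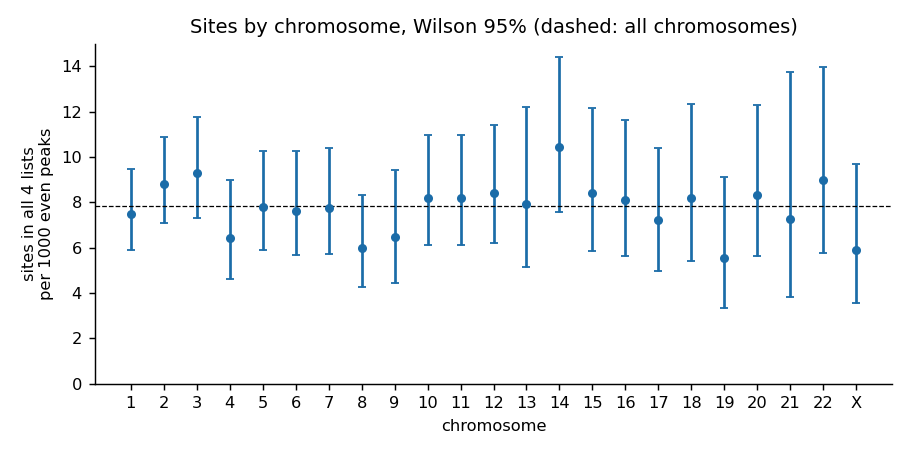
The number of sites in all 4 lists per 1000 even peaks under 800 bp (y axis) on each chromosome (x axis), with Wilson 95% intervals. The dashed line is the value over all chromosomes, 7.83, which lies in every interval.

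Near chromosome ends and near stretches without peaks, the shares of the sites were close to those of the comparison group. Within 2 Mb of the first or last peak of a chromosome lay 38 sites (4.61%, 3.38 to 6.27), against 4.65% of the comparison group (4.51 to 4.80). Within 5 Mb the shares were 11.2% in both. The longest stretch without a peak in any list was 3 Mb or more on 19 chromosomes and down to 0.332 Mb on the others. Within 2 Mb of it lay 17 sites (2.06%, 1.29 to 3.28), against 1.98% of the comparison group (1.89 to 2.08). The median distance from the nearest end was 29.9 Mb for the sites and 29.1 Mb for the comparison group. The 38 sites near an end had a median smallest fold of 7.91 and the 17 near the longest stretch without peaks one of 12.0, against 8.18 at the 771 sites elsewhere. Some sites belong to both of the groups of 38 and 17.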

How the data were processed

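Per the submitters' processing notes, Bowtie, MACS2 and the build hg19 were used. Their versions, and the threshold and control used to call peaks, are each not given in the sources used here. Each deposited list follows the narrowPeak layout, with no header: a score, the fold (a linear ratio), a −log10 p-value and a −log10 q-value per peak, all the authors' values, and the summit as an offset from the start. Peaks are named by library, so they were called per library. Scores were not used.

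Overlaps were counted with pandas 2.3.3, numpy 2.4.6 and scipy 1.17.1 under Python 3.11.15. Coordinates are 1-based. Plots were made with matplotlib 3.10.9. Where several peaks of a list overlapped a site, the one with the highest fold was its partner. Counting was tested on simulated lists. The comparison group is even peaks under 800 bp that overlap RNase even but neither odd list.

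Named sites are those with the highest smallest fold, the most one-sided folds in the same order in both RNase states, the closest and farthest summits, the 2 largest clusters, those beside the width limit and the median one. The sites, bands and rules were chosen with earlier results of these data known. Fold bands of 50 to 100 and the groups at a fold of 50 were set after the values were seen. Alternatives were other overlaps, thresholds, widths, starting lists, partners, measures of strength, and sites within 1 kb counted as 1. No hg19 sequence or annotation was used here.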

Additional observations from a re-analysis of the deposited data

Results flagged for a closer look

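Mitochondrial DNA was outside the comparisons. It had 5 even peaks under 800 bp that met a peak of each other list, and was picked out because these had been left unanalysed. In each probe set its peaks covered more bases in the untreated library (3449 against 2107 bp in the even set, 4801 against 2129 bp in the odd set). The highest folds among these 5 were 4.79 (even), 9.43 (odd), 3.20 (RNase even) and 3.92 (RNase odd), an order of RNase states opposite to that of most of the 824 nuclear sites. The difference was not tested.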

How the results depend on the processing

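Of 43 values under other settings, 30 stayed within 1.5 times (numbers of sites) or within the 95% interval of the reported value, and 13 moved further, none to the other side of 50% in the order of the sets. The intervals of the even share with reciprocal 50% overlap and with the q-value limit did hold 50%. Reciprocal 50% overlap left 204 of the 824 sites, with a median even to odd distance of 41.5 bp, the even fold higher at 55.4%, the same order at 78.4%, the RNase odd fold above the odd fold at 92.6% and another site within 100 kb at 3.43%. A −log10 q-value of at least 10 left 461 sites, with 86 bp, 54.2% and 4.99% for the distance, the even share and the neighbours, where fewer sites make neighbours rarer by construction. The share of even peaks at a fold of 100 or more in all 4 lists was 29.5% with summits within 200 bp, a setting added after the data were seen. A width under 400 bp gave 86 bp. Percentile ranks gave 60.3% (even) and 82.6% (odd) for a higher value with RNase. The even to RNase even distance stayed between 19 and 20 bp in the settings run. No paired analysis was possible because each condition had 1 library. Depth is unknown and limits what the absence of a peak from a list can show.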
